A study of Mus musculus with 6 samples.

Results

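Corneodesmosin (Cdsn) was examined in growth plate cartilage beside 6 epithelial keratins (Krt5, Krt14, Krt15, Krt8, Krt18 and Krt19) and 3 genes of the desmosomal plaque (Dsp, Jup and Pkp2), which are 10 of the 46078 genes in the count tables. The 10 genes were taken by name from a list chosen by their known counts in these same mutant and control libraries, so that those values are given as a description, and no test of them is used as evidence. Bulk RNA sequencing had been carried out on the cartilage of the distal femur and the proximal tibia of mice at E18.5, in 3 control and 3 Idh1 mutant libraries. Controls were Idh1 LSL/+, with a targeted Idh1 allele behind a lox-stop-lox cassette, and Idh1 mutants were Col2a1-Cre; Idh1 LSL/+. Both groups therefore carried the targeted allele, and only the mutants carried the Cre transgene, which is driven by the chondrocyte promoter of Col2a1, so that mutant Idh1 and Cre itself cannot be told apart here. The age was labelled E18.5, although a passage on animal care in the labels speaks of 2 months. Replicates were numbered without animals or litters being named, so that every p-value below measures only the spread between these libraries.

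Cdsn encodes a secreted adhesive glycoprotein of the uppermost living layer of the epidermis, where it is built into the corneodesmosomes that hold the cornified cells together until proteases cut it and the cells are shed. Keratins are filaments that form only when a type II chain pairs with a type I chain. Krt5 (type II) pairs with Krt14 or Krt15 (type I) in the basal layer of stratified epithelia, and Krt8 (type II) pairs with Krt18 or Krt19 (type I) in simple epithelia. Desmosomes anchor these filaments to the cell membrane: desmosomal cadherins span the membrane, plakoglobin (Jup) and plakophilins (Pkp2 among them) bind the cadherin tails, and desmoplakin (Dsp) ties the plaque to the filaments. Chondrocytes are mesenchymal cells whose main intermediate filament is vimentin, and plakoglobin also serves at adherens junctions, which mesenchymal cells do have.

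The libraries held between 23445687 and 30415773 counts. A count of 3, taken as the floor for a single library, corresponded to between 0.0978 and 0.127 CPM (counts scaled to the size of the library, adjusted by edgeR's TMM factors), and this floor covers counting error only. Mutant 3 stood apart from the rest by 26356 counts of Xist, against 0 to 13 counts in the other 5 libraries. It had 512 counts of Y-linked genes, against 4193 to 5829 in the others. By these sex-linked counts the groups were not matched, as mutant 3 differed from all controls and from the other mutants. The tissue label was checked with marker lists. All 9 cartilage markers passed the expression filter, with a summed level of 3293 to 6585 CPM in control cartilage and 5152 to 7338 CPM in mutant cartilage. RNA of neighbouring tissue was also present, and the muscle and bone sums exceeded the cartilage sum in every library. Sums over different genes are not shares of tissue. The 6 skeletal muscle markers summed to 12343 to 18216 CPM in control cartilage and 11667 to 17165 CPM in mutant cartilage, and the 6 bone markers to 33924 to 48058 and 39271 to 41144 CPM.

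The 2 genes with the widest separation between genotypes, Cdsn and Krt5, are shown by the 250 bases before their transcription start, because this is the stretch where a shared regulatory motif would be looked for. The sequences come from RefSeq (GRCm38.p6), in which 7 of the 10 genes were matched. They are given 5′ to 3′ on the strand of the gene, Cdsn at chr17:35551878-35552127 (forward strand) and Krt5 at chr15:101712906-101713155 (reverse strand), and capitals mark the only motif found.
Cdsn: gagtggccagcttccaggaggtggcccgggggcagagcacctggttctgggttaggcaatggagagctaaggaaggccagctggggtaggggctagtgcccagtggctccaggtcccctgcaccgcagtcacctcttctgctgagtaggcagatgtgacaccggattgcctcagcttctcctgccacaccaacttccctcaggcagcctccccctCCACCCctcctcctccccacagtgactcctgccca
Krt5: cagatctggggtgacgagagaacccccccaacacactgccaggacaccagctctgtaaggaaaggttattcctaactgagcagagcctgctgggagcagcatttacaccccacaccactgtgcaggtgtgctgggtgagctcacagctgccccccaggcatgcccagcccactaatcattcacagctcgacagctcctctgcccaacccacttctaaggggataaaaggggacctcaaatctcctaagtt

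The start used for Cdsn is the first base of the gene in the count tables, and that of Krt5 lies 14 bases from the end of the gene model. RefSeq lists another start for Cdsn 9027 bases upstream, whose promoter is not shown. Both strands were searched for 8 motifs. The Cdsn stretch held one, a CACCC box (CCACCC) from 35 to 30 bases before the start, which 28.1% of the 32851 promoters of the table also hold. The Krt5 stretch held no exact match to any of the 8, and variants of their letters were not searched. The other motifs were the TATA box (TATAAA, in 12.4% of all promoters), the AP-1 site (TGAGTCA or TGACTCA, 4.46%), the cyclic AMP response element (TGACGTCA, 1.55%), the Atf4 composite element (TGATGNAA, 3.45%), the GC box (GGGCGG, 32.7%), the Sox site (ACAATG or ACAAAG, 25.2%) and the AP-2 site (GCCNNNGGC, 13.7%). The GC content was 64.0% for Cdsn and 56.0% for Krt5, against a median of 52.4% over all promoters. A match or its absence describes these letters and says nothing of binding.

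Cdsn (ENSMUSG00000039518, GRCm38 chr17:35552128-35557180, forward strand, 2 exon blocks) was near the floor in control cartilage and well above it in Idh1 mutant cartilage. Control libraries had 8, 12 and 17 counts, or 0.284, 0.391 and 0.614 CPM. Mutant libraries had 120, 174 and 163 counts, or 5.08, 7.06 and 5.61 CPM. Every mutant library lay above every control library, and the lowest mutant was far from the highest control. The mean was 0.430 ± 0.168 CPM (SD, n = 3) in control cartilage and 5.92 ± 1.03 CPM (SD, n = 3) in mutant cartilage, 13.8 times as high, with a log2 fold change of 3.77 (standard error 0.30). Leaving out one library at a time gave log2 fold changes from 3.56 to 4.11, and without mutant 3, the library with Xist, the value was 3.81. On the scale of RPKM (CPM per kilobase of exon, the scale on which genes can be compared), its level went from 0.160 in control cartilage to 2.21 in mutant cartilage, which moved its rank among all 46078 genes from 18553 to 10884. Its exons overlap no other gene, and none of the 50-base stretches of its transcript occurs in another gene of the annotation. In bulk RNA, more cells with the transcript and more transcript per cell cannot be told apart, here or for any gene below.

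Krt5 (ENSMUSG00000061527, chr15:101707070-101712891, reverse strand, 9 exon blocks), the type II keratin of basal keratinocytes, differed the other way. Control libraries had 83, 242 and 153 counts, or 2.95, 7.89 and 5.52 CPM. Mutant libraries had 8, 0 and 11 counts, or 0.339, 0 and 0.378 CPM, and the 0 of mutant 2 allows up to 0.122 CPM. The groups did not overlap, but the controls themselves spread widely, control 2 being the highest and control 1 the lowest. The mean was 5.45 ± 2.47 CPM (SD, n = 3) in control cartilage and 0.239 ± 0.208 CPM (SD, n = 3) in mutant cartilage, a level 22.8-fold lower, with a log2 fold change of -4.46 (standard error 0.61). It was -4.09 without control 2, -3.90 without mutant 2 and -5.00 without mutant 3. In RPKM the mean was 2.49 in control cartilage and 0.109 in mutant cartilage. An annotated antisense gene, AC120787.1, covers 5.89% of the Krt5 exons and had 0 counts in all 6 libraries. A count without strand cannot separate the pair, so this 0 is not read as absence of antisense RNA. Of the 50-base stretches of the Krt5 transcript 12.2% occur in another gene, most often Krt6a, and reads from such stretches map to several places.

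Of the 8 genes of the list that passed the expression filter, Cdsn and Krt5 were among the 32 genes (0.190% of 16813) that the edgeR fit over all genes called (adjusted p under 0.05, Benjamini-Hochberg). Over all genes 9 were called higher in mutants (0.0535%) and 23 lower (0.137%). As the list was written with this comparison in view, the calls restate what chose the genes: they are no test of Cdsn or Krt5, and the count is not read against that share. As a description of how the calls depend on the fit, Cdsn was called in all 6 fits that left out one library. Krt5 was called only in the fit without control 1. These fits used fewer libraries and called 3 to 17 genes over all genes, so a lost call does not show that 1 library carried it. With the replicate number as a block 3 genes were called over all genes, and of the 8 only Cdsn. Cdsn and Krt5 were both called by DESeq2, with its size factors in edgeR and without the low-count filter. Groups did not overlap in 3 of the 8 (Cdsn, Krt5 and Krt19), and in 14.4% of all genes tested. This count too comes from the values that chose the genes, and it is not read against that share.

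**Figure D1:**
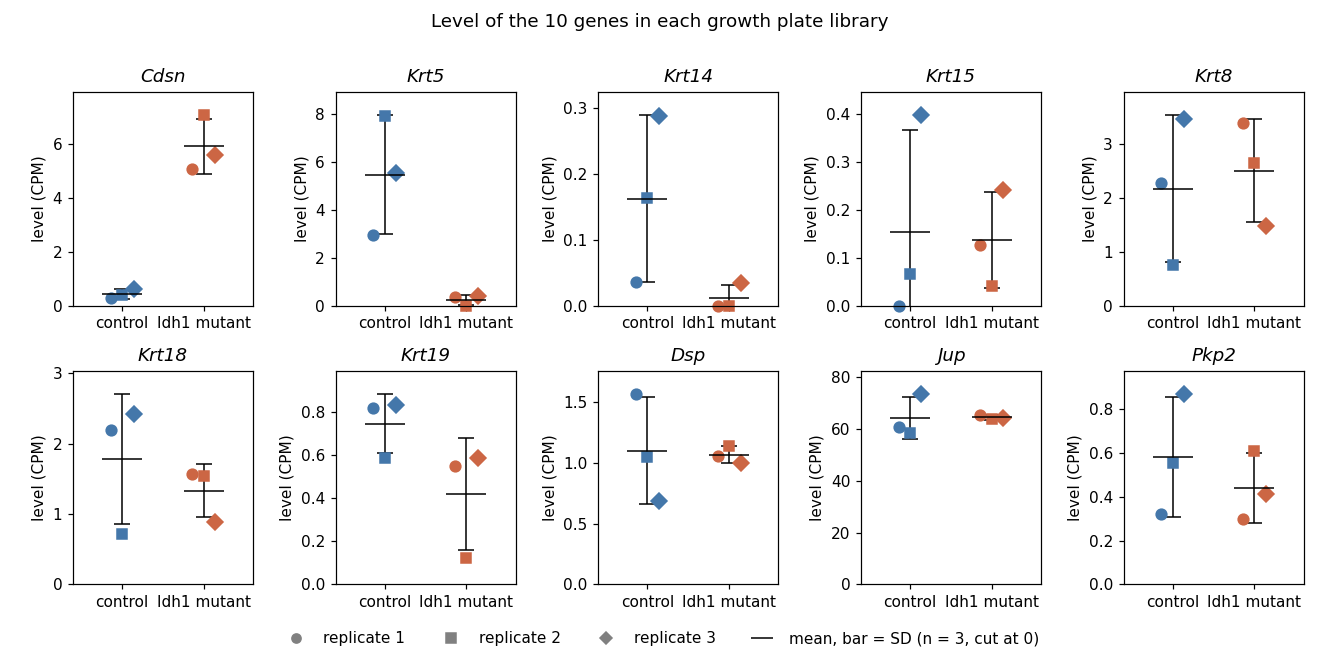
Level of each of the 10 genes in CPM (y axis, from 0 and with a scale of its own in each panel) in the 3 control (blue) and 3 Idh1 mutant (red) libraries. Symbols give the replicate number, and the horizontal line and bar give the mean and SD, cut at 0. Cdsn lies at 0.284 to 0.614 CPM in controls and 5.08 to 7.06 CPM in mutants, Krt5 at 2.95 to 7.89 and 0 to 0.378 CPM, and Jup at about the same level in both groups.

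The type I partners of Krt5 were almost absent in both genotypes. Krt14 (ENSMUSG00000045545, chr11:100203162-100207548), the usual basal partner, had 1, 5 and 8 counts in control cartilage and 0, 0 and 1 in mutant cartilage. Krt15 (ENSMUSG00000054146, chr11:100131758-100135928), a basal type I keratin also found in hair follicle stem cells, had 0, 2 and 11 counts in control cartilage and 3, 1 and 7 in mutant cartilage. Neither gene passed the expression filter, so neither was part of the fit over all genes. Krt14 reached 3 counts in 2 of the 6 libraries, both controls, and its low counts lay on the same side as those of Krt5. For Krt15 the groups overlapped.

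In the control libraries, Krt5 far exceeded both of its basal type I partners. Summed over the 3 controls there were 478 counts of Krt5 against 14 of Krt14 and 13 of Krt15. The ratio of the RPKM of Krt5 to the summed RPKM of Krt14 and Krt15 was 66.6, 27.8 and 6.48 in control cartilage and 2.15, 0 and 1.11 in mutant cartilage. Of the RPKM of all 23 type II keratins combined, Krt5 made up 16.4%, 47.1% and 25.1% in control cartilage and 2.98%, 0% and 2.48% in mutant cartilage. The denominators of the first ratio rest on few counts, so that its order among the controls is not interpretable. Of the 50-base stretches of Krt14, 13.9% occur in another gene, mostly Krt16, a share close to that of Krt5.

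**Figure D2:**
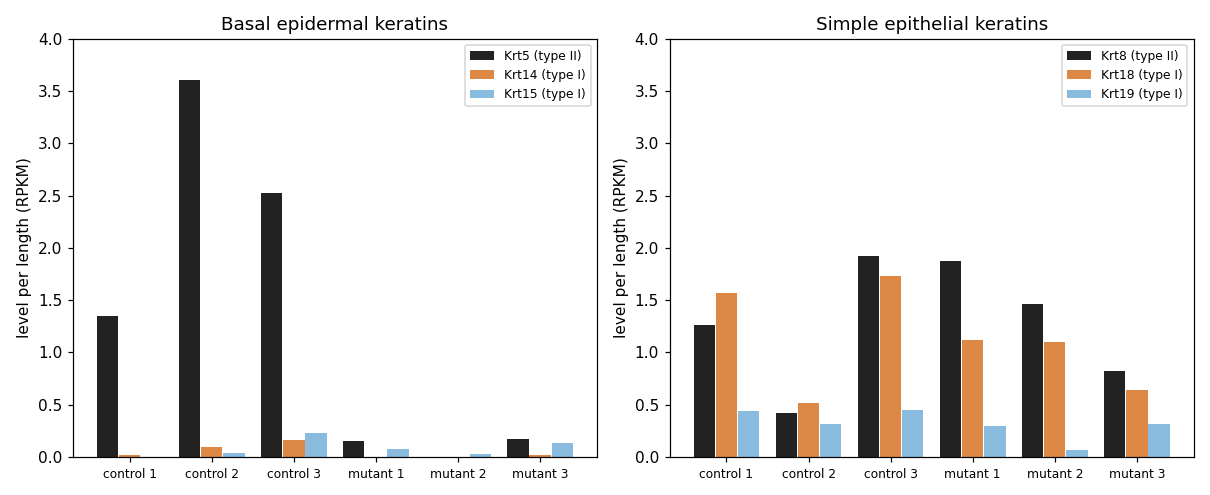
RPKM (CPM per kilobase of exon, y axis from 0) of the basal keratins Krt5, Krt14 and Krt15 (left) and of the simple epithelial keratins Krt8, Krt18 and Krt19 (right) in each of the 6 libraries, one bar per gene. Krt5 stands well above Krt14 and Krt15 in every control library, whereas Krt8 and Krt18 have similar heights and move together from library to library in both genotypes.

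The simple epithelial keratins showed no such split. Krt8 (ENSMUSG00000049382) had 2.27, 0.750 and 3.47 CPM in control cartilage and 3.39, 2.64 and 1.48 CPM in mutant cartilage, means of 2.16 ± 1.36 CPM (SD, n = 3) and 2.50 ± 0.961 CPM (SD, n = 3). All mutant values lay inside the control range, and the log2 fold change of 0.21 (standard error 0.48) changed sign when single libraries were left out, from -0.21 without control 2 to 0.73 without control 3. Krt18 (ENSMUSG00000023043) had 2.20, 0.717 and 2.42 CPM in control cartilage and 1.57, 1.54 and 0.894 CPM in mutant cartilage, a log2 fold change of -0.42 (standard error 0.44). In both genes control 2 was the lowest of all libraries and control 3 the highest, the reverse of Krt5 for control 2.

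In contrast to the basal pair, Krt8 and Krt18 were present at similar levels per length. The mean RPKM of Krt8 was 1.20 in control cartilage and 1.39 in mutant cartilage, and that of Krt18 was 1.27 and 0.953. Their ratio, Krt8 over Krt18, was 0.801, 0.811 and 1.11 in control cartilage and 1.68, 1.33 and 1.28 in mutant cartilage, so that the mutant ratios lay above the control ratios. This ratio was set up after the values were seen and was not tested. Of the 50-base stretches of Krt8, 29.7% are found elsewhere in the annotation, mostly in Krt8-ps, against 0.721% for Krt18.

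Krt19 (ENSMUSG00000020911), a small type I keratin that also pairs with Krt8, had 23, 18 and 23 counts in control cartilage and 13, 3 and 17 in mutant cartilage. In CPM these were 0.816, 0.587 and 0.830 against 0.550, 0.122 and 0.585. The mutants lay below the controls, but control 2 and mutant 3 were separated by less than 0.01 CPM, and mutant 2 was the lowest of all libraries. The log2 fold change was -0.81 (standard error 0.49), with values from -1.14 to -0.38 when single libraries were left out. Its RPKM of 0.401 in control cartilage and 0.226 in mutant cartilage was the lowest of the simple epithelial trio.

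Among the plaque genes, Jup (ENSMUSG00000001552, chr11:100368958-100397763) was the one abundant gene of the list. It had 60.7, 58.6 and 73.3 CPM in control cartilage and 65.5, 63.8 and 64.2 CPM in mutant cartilage. The mutant values fell inside the control range. Means were 64.2 ± 7.97 CPM (SD, n = 3) and 64.5 ± 0.902 CPM (SD, n = 3), and the log2 fold change was 0.01 (standard error 0.10). Its RPKM of 9.98 and 10.02 was higher than that of any other gene of the list in either genotype, with ranks of 5003 and 4937 among all genes.

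Dsp and Pkp2, which have fewer roles outside desmosomes, were low. Dsp (ENSMUSG00000054889, chr13:38151328-38198577) had 44, 32 and 19 counts in control cartilage and 25, 28 and 29 in mutant cartilage, or 1.10 ± 0.440 and 1.06 ± 0.070 CPM (SD, n = 3 each), with a log2 fold change of -0.04 (standard error 0.34). Pkp2 (ENSMUSG00000041957, chr16:16213318-16272712) had 9, 17 and 24 counts in control cartilage and 7, 15 and 12 in mutant cartilage, with a log2 fold change of -0.39 (standard error 0.47). The groups overlapped in both genes. Per length, Dsp had 0.114 RPKM in control cartilage and 0.111 RPKM in mutant cartilage, and Pkp2 had 0.108 and 0.0820 RPKM, so that Jup exceeded both by far in every library. The gene Gm10129 covers 4.83% of the exons of Dsp and had at most 2 counts in a library.

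Ordered by RPKM in control cartilage, the 10 genes ran from Jup through Krt5, Krt18, Krt8, Krt19, Cdsn, Dsp, Pkp2 and Krt14 to Krt15. In the mutants the order was Jup, Cdsn, Krt8, Krt18, Krt19, Dsp, Krt5, Pkp2, Krt15 and Krt14. Cdsn moved from the sixth place to the second and Krt5 from the second to the seventh, while Jup, the simple epithelial keratins and the remaining genes held nearly the same order. Neighbours in these orders were often within each other's spread, as for Krt8 and Krt18 in both genotypes, for Dsp and Pkp2, and for Krt14 and Krt15 in control cartilage.

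The remaining genes of the desmosome were then examined. Of 13 further desmosomal cadherins, plakophilins and Perp, 5 passed the expression filter and 0 were called by edgeR, with 2 at an unadjusted p under 0.05 (0.190% of all genes were called and 8.64% had an unadjusted p under 0.05). The median log2 fold change of the 5 was -0.31, against -0.00259 over all genes tested. Perp, a tetraspan membrane protein of desmosomes, had 1.03, 0.685 and 1.01 CPM in control cartilage and 2.58, 1.99 and 2.79 CPM in mutant cartilage, so that like Cdsn its groups were separate with the mutants above. With a log2 fold change of 1.44 and a standard error of 0.28, it had an adjusted p of 0.114 from edgeR. DESeq2 did call Perp.

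The desmosomal cadherins were scarce. Dsg2, the desmoglein of simple epithelia and heart, had 0.660 ± 0.135 CPM (SD, n = 3) in control cartilage and 0.299 ± 0.0248 CPM (SD, n = 3) in mutant cartilage (log2 fold change -1.13, adjusted p = 0.422 from edgeR). Its counts reached the filter's minimum count of 10 only in the controls (23, 18 and 16, against 7, 8 and 8 in the mutants). The filter thus favoured a log2 fold change below 0. Pkp1, the plakophilin of stratified epithelia, had 1.61 ± 0.374 and 1.29 ± 0.161 CPM (SD, n = 3 each), and Dsc2, the desmocollin counterpart of Dsg2, had 0.763 ± 0.142 and 0.602 ± 0.266 CPM (SD, n = 3 each). Dsg3 and Dsg4, which belong to stratified epithelium and hair, had 0 counts in all 6 libraries, and none of the other 6 untested genes had more than 13 counts in a library. Pkp4, a relative of the plakophilins that is also found at adherens junctions, was the exception at 73.0 and 71.2 CPM, with a log2 fold change of -0.03 (standard error 0.08). Jup and Pkp4, the abundant genes of the desmosome lists, both encode proteins known from adherens junctions too. The adherens junction genes themselves were high: Ctnnb1, the catenin closest to Jup, had 706 ± 42.0 CPM (SD, n = 3) in control cartilage and 701 ± 14.7 CPM (SD, n = 3) in mutant cartilage, and Cdh11, a mesenchymal cadherin, had 293 ± 10.9 and 279 ± 16.7 CPM (SD, n = 3 each). Of the 8 adherens junction genes 8 were tested and 0 were called by edgeR, with 0 at an unadjusted p under 0.05.

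Epithelial keratins outside the list were low as well. Of 20, 5 passed the filter, with a median log2 fold change of -0.34. EdgeR called 0 of the 5 (0.190% over all genes tested), and 1 had an unadjusted p under 0.05 (8.64% over all genes tested). The highest were Krt10, the suprabasal type I keratin, at 6.07 ± 1.51 CPM (SD, n = 3) in control cartilage and 5.91 ± 0.452 CPM (SD, n = 3) in mutant cartilage, and Krt80 at 5.69 ± 1.71 and 6.21 ± 2.76 CPM (SD, n = 3 each). Their log2 fold changes were -0.04 and 0.14. Krt79 had 1.92, 1.24 and 1.12 CPM in control cartilage and 0.593, 0.609 and 0.275 CPM in mutant cartilage, lower in mutant cartilage without overlap (log2 fold change -1.54, adjusted p = 0.239 from edgeR). Krt1, the type II partner of Krt10, had a log2 fold change of -1.20 with a standard error of 0.63. The non-keratin filaments dominated: Vim, the mesenchymal filament, had 2592 ± 44.8 CPM (SD, n = 3) in control cartilage and 2690 ± 493 CPM (SD, n = 3) in mutant cartilage, and of 6 mesenchymal, muscle and nuclear filament genes 0 were called by edgeR and 0 had an unadjusted p under 0.05.

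**Figure D3:**
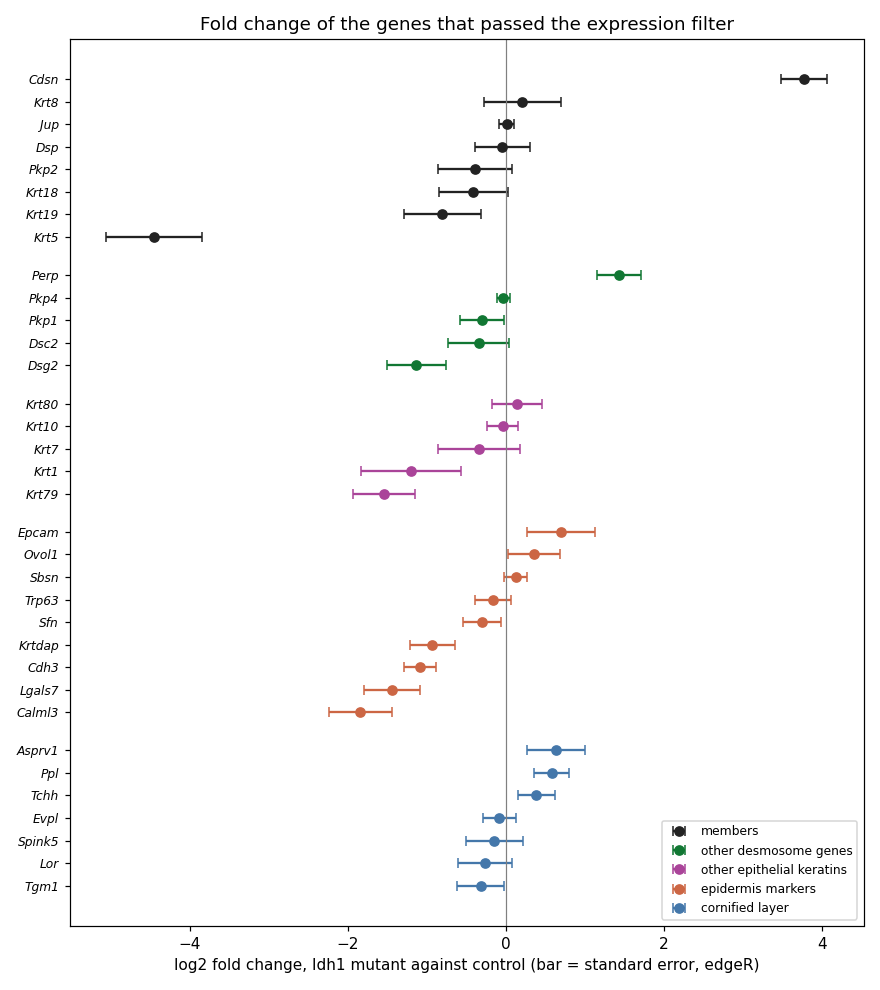
Log2 fold change of Idh1 mutant against control (x axis) with its standard error (bar, edgeR) for the genes that passed the expression filter among the 10 genes, the other desmosome genes, the other epithelial keratins, the epidermis markers and the cornified layer genes, with each gene drawn once. Cdsn at 3.77 and Krt5 at -4.46 lie outside the range of the other genes drawn, which runs from -1.84 for Calml3 to 1.44 for Perp.

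Krt5 and Cdsn are both genes of the epidermis, so its markers were read beside them. Of 20 markers 12 passed the filter, with a median log2 fold change of -0.23, and 0 were called by edgeR (0.190% over all genes tested). At an unadjusted p under 0.05 (8.64% over all genes tested), 4 of the markers were lower and 1 was higher in mutant cartilage. Their summed level was 38.2 to 48.6 CPM in control cartilage and 32.0 to 33.9 CPM in mutant cartilage, without overlap, and control 2 was the highest, as for Krt5. This separation rested on 1 gene, Cdh3: without it, a sum formed after the values were seen, the other 19 markers came to 26.7 to 37.2 CPM and 26.3 to 27.7 CPM, which overlap. Cdh3, P-cadherin of basal keratinocytes and hair follicles, had 12.7 ± 2.23 CPM (SD, n = 3) in control cartilage and 6.01 ± 1.47 CPM (SD, n = 3) in mutant cartilage (log2 fold change -1.09, adjusted p = 0.0971 from edgeR). Calml3 had 4.05, 5.44 and 1.70 CPM in control cartilage and 1.10, 1.06 and 0.963 CPM in mutant cartilage (log2 fold change -1.84, adjusted p = 0.148 from edgeR), and Lgals7 had 1.63, 3.29 and 2.06 against 0.635, 0.771 and 1.14 CPM (log2 fold change -1.44, adjusted p = 0.209 from edgeR). DESeq2 did call Cdh3, Calml3 and Lgals7, all lower. The markers Dsg3 and Fermt1 were at 0 in all 6 libraries, and Cdh1, the E-cadherin of all epithelia, had 0 to 6 counts. Of the 12 tested markers 8 had a log2 fold change below 0, among them Krt1 (-1.20), Krtdap (-0.93), Sfn (-0.31), Trp63 (-0.16) and Krt10 (-0.04). The 4 above 0 were Sbsn (0.12), Ovol1 (0.35), Epcam (0.69) and Perp (1.44), so that the list held differences in both directions. The part of epidermal RNA in the difference of either gene was not tested.

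Some markers of other tissues also differed between the groups. The 6 erythroid markers summed to 544 to 1581 CPM in control cartilage and 288 to 426 CPM in mutant cartilage. Control 2 was again the highest. Of the 6, 0 were called by edgeR (0.190% over all genes tested) and 5 had an unadjusted p under 0.05 (8.64% over all genes tested). The 6 tendon and ligament markers summed to 3205 to 3438 CPM in control cartilage and 2108 to 2468 CPM in mutant cartilage, and 1 of them was called, Tnmd (tenomodulin), which fell from 503 ± 58.5 to 288 ± 31.8 CPM (SD, n = 3 each; log2 fold change -0.81, adjusted p = 0.0374 from edgeR). The Tnmd call was present in 1 of the 6 fits that left out one library, the fit without control 3. Cartilage, muscle and bone sums overlapped between the genotypes, and of the 9 cartilage and 6 muscle markers 0 were called by edgeR and 0 had an unadjusted p under 0.05. The bone sum is mostly Col1a1, and without it, a choice made after the values were seen, the other 5 markers came to 318 to 1283 CPM in control cartilage and 1227 to 1960 CPM in mutant cartilage. All 6 bone markers had a log2 fold change above 0, as did Cdsn and 8293 of the 16813 genes tested. That of Col1a1 was only 0.01 (standard error 0.19). The bone markers had a median of 0.38, with 0 called by edgeR and 2 at an unadjusted p under 0.05. Ibsp, a bone matrix sialoprotein, had 475 ± 444 and 1188 ± 265 CPM (SD, n = 3 each), and Dmp1, an osteocyte matrix protein, had 37.0 ± 40.3 and 124 ± 63.9 CPM (SD, n = 3 each), with adjusted p-values from edgeR of 0.557 and 0.522. Whether the tissue composition of the samples had a part in the values of Krt5 or Cdsn was not tested.

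**Figure D4:**
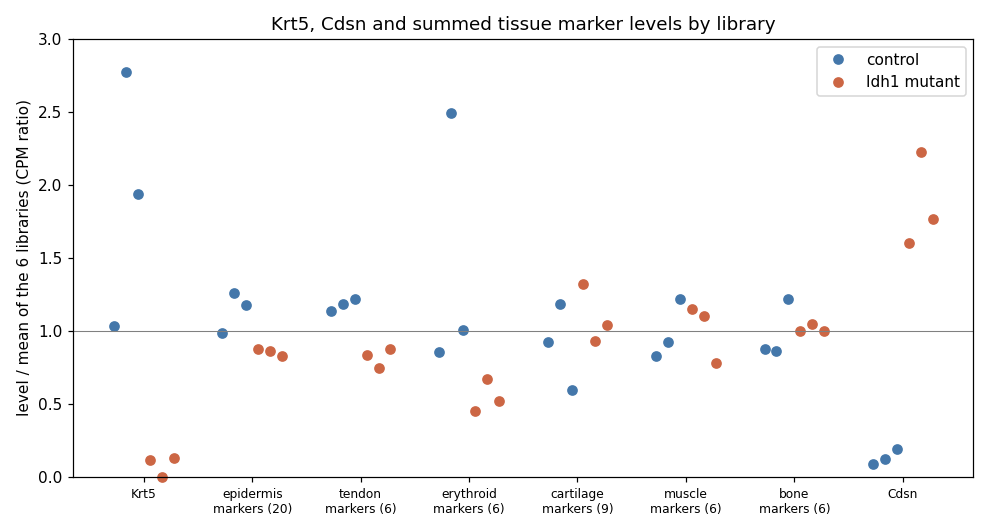
Level of Krt5, of Cdsn and of the summed markers of 6 tissues in each library, divided by the mean of the 6 libraries (y axis, from 0), with the number of markers in each list in parentheses and libraries in the order of their replicate number. Controls (blue) lie above mutants (red) for Krt5 and the epidermis, tendon and erythroid sums (the epidermis sum overlaps without Cdh3), below them for Cdsn, and among them for the cartilage, muscle and bone sums.

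The genes beside Cdsn and Krt5 on the chromosome were read as well, although few of them could be tested. Within 100 kb of Cdsn lay 13 genes, of which 3 passed the filter and 0 were called by edgeR, with 0 at an unadjusted p under 0.05. As 0.190% of all genes tested were called and 8.64% had an unadjusted p under 0.05, a 0 among 3 genes carries little. Cchcr1, 21.1 kb away, had a log2 fold change of -0.04 (standard error 0.09), Tcf19 of -0.10 (standard error 0.10) and Vars2 of 0.13 (standard error 0.09), with adjusted p-values from edgeR of 0.957, 0.853 and 0.782. Psors1c2, the nearest epidermal gene at 17.5 kb, had 9, 8 and 14 counts in control cartilage and 6, 3 and 1 in mutant cartilage, below the filter and on the other side from Cdsn. Around Krt5, in the type II keratin cluster, 13 genes lay within 100 kb, of which 0 passed the filter and 10 had 0 counts in all libraries. Whether the difference of Krt5 extended to its neighbourhood was therefore not tested. Krt6a, 12.8 kb away, had 0, 0 and 3 counts in control cartilage and 2, 0 and 0 in mutant cartilage, and Krt6b had 1 count in all 6 libraries together.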

How the data were processed

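Bulk RNA-seq libraries of E18.5 growth plate cartilage were analysed, 3 control and 3 Idh1 mutant, grouped by their labels. The authors trimmed reads with Trim Galore 0.6.4, aligned them to GRCm38 with STAR 2.6.1d, counted them on exons without regard to strand with featureCounts 1.6.4, and deposited whole-number counts per gene, without normalization. The number of per-sample columns not used was 0.

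The 10 genes, the gene lists and the tests were chosen with earlier results of these data known. Genes passing filterByExpr of edgeR 4.0.16 in R 4.3.3 (minimum count 10, minimum total 15; 16813 genes) were tested with glmQLFit and glmQLFTest on genotype alone, as litters are not given in the labels, with TMM factors and Benjamini-Hochberg adjustment (threshold 0.05). The biological coefficient of variation was 0.131. CPM were computed with the TMM factors and RPKM from the exon lengths in the files. Flg and Dst, listed on several rows, were represented by the row with the most counts. Named were the 10 genes, the called and the 4 highest genes of every other list, tested genes within 100 kb of Cdsn or Krt5, and the 5 genes closest in pattern to Cdsn, Krt5 and Krt8. Other names were chosen after their values were seen. Not every gene under this rule is described.

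Alternatives were DESeq2 1.42.0, its size factors in edgeR, no low-count filter, the replicate number as a block, and each library left out in turn. On simulated counts of 16598 genes for this comparison, edgeR recovered 83 of 96 genes changed by 1 and 97 of 97 changed by 2 on the log2 scale, with 4 false calls. Every simulated gene was given the same spread, a biological coefficient of variation of 0.131. The recovery therefore does not carry over to genes that vary more between replicates, such as Krt5. Replicate libraries differed by more than sampling noise (11.7 to 45.9 as chi-square divided by its degrees of freedom). Plots used Python 3.11.15 and matplotlib 3.10.9.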

Additional observations from a re-analysis of the deposited data

How the results depend on the processing

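The number of genes called over all 16813 depended on the fit: 32 with edgeR, 32 with DESeq2's size factors, 193 with DESeq2, 259 without the low-count filter (28686 genes), 3 with the replicate block and 3 to 17 with one library left out, where fewer samples were fitted. Of the 8 tested members 2 were called, 1 with the block and 1 to 2 with a library left out. In the epithelial lists together edgeR called 0 of 37 tested genes (0.190% over all genes tested). Of the 37, 10 had an unadjusted p under 0.05 (8.64% over all genes tested), in lists chosen with earlier results known. DESeq2 called 4 (Perp higher, Calml3, Cdh3 and Lgals7 lower), and 5 were called without the filter (these and Krt79, lower). With a library left out the count was 0 to 1 (Calml3, without control 3). In all lists outside the members the count was 1 (Tnmd), and it was 10 with DESeq2, 17 without the filter, 0 with the block and 0 to 2 with a library left out. The Tnmd call was present only without control 3 among those fits. Near Cdsn and Krt5 the count was 0 in every fit, of only 3 tested genes (13 without the filter), so that this 0 is no measure of stability.

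Same-numbered controls and mutants had correlations of their deviations from the group means of -0.127, 0.00700 and -0.0953. No library correlated best with its own number. Whether the replicate numbers stand for litters cannot be told from 3 libraries per group. The 80 log2 fold changes of members under the alternatives all differed from the main value by less than 1 SD between replicates, and 9 (in Krt8, Dsp, Jup and Pkp2) had the other sign. These fits reuse all or most of the same libraries and could hardly move by more, so that the first count is no measure of stability. Krt14 and Krt15, with at most 11 counts in a library, were fitted only without the filter, with log2 fold changes of -3.27 (standard error 1.39) and -0.13 (standard error 0.97) that depend on the prior count.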

Other observations

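The cornified layer, where corneodesmosin is normally used, was read as a group. Of 26 genes of the cornified envelope, of keratinocyte differentiation and of corneodesmosome shedding, 9 passed the expression filter. The median log2 fold change of the 9 was -0.08. EdgeR called 0 of them (0.190% over all genes tested), and 2 had an unadjusted p under 0.05 (8.64% over all genes tested). Sbsn, a secreted protein of differentiated keratinocytes, was the highest at 6.16 ± 0.724 CPM (SD, n = 3) in control cartilage and 6.70 ± 0.338 CPM (SD, n = 3) in mutant cartilage. The envelope plakins differed in their values, Ppl (periplakin) with a log2 fold change of 0.58 (adjusted p = 0.501 from edgeR) and Evpl (envoplakin) with -0.08 (adjusted p = 0.957 from edgeR). Spink5, the inhibitor of the proteases that cut corneodesmosin, had 2.19 ± 1.11 and 1.99 ± 0.553 CPM (SD, n = 3 each). Krtdap, which marks early keratinocyte differentiation, had 1.24, 1.14 and 1.26 CPM in control cartilage and 0.635, 0.609 and 0.654 CPM in mutant cartilage (log2 fold change -0.93, adjusted p = 0.368 from edgeR). Hrnr and Sprr3 had 0 counts in all libraries. The log2 fold changes of the 9 tested genes lay far below that of Cdsn.

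Hair keratins, periderm and hemidesmosome genes were examined beside the basal keratins. Of 23 hair and inner root sheath keratins 22 were in the tables, 11 were at 0 in all 6 libraries, and 1 passed the filter, Krt75, with 0.630 ± 0.212 CPM (SD, n = 3) in control cartilage and 0.178 ± 0.153 CPM (SD, n = 3) in mutant cartilage (log2 fold change -1.85, adjusted p = 0.420 from edgeR). Their summed level was 1.28 to 1.70 CPM in control cartilage and 0.378 to 0.771 CPM in mutant cartilage, lower without overlap, as for Krt5. This sum rests on few reads: Krt75 had 16, 14 and 24 counts in control cartilage and 8, 4 and 1 in mutant cartilage. Only its control counts reached the filter's minimum count of 10, so that the filter itself favoured a log2 fold change below 0. None of the untested hair keratins had more than 14 counts in a library. The 6 periderm markers summed to 4.44 to 5.87 CPM and 3.13 to 4.61 CPM, and 1 passed the filter (Sfn) with 0 called by edgeR and 0 at an unadjusted p under 0.05. The hemidesmosome and basement membrane genes, through which Krt5 filaments anchor to the matrix, all passed the filter (10 of 10), with 0 called by edgeR, 1 at an unadjusted p under 0.05 and a median log2 fold change of 0.08. Their highest members, Plec (plectin) at 793 ± 144 and 915 ± 37.0 CPM (SD, n = 3 each) and Itga6 at 131 ± 7.20 and 140 ± 4.67 CPM (SD, n = 3 each), are also used by mesenchymal, muscle or endothelial cells. The 6 bone markers had 0 called by edgeR, with 2 at an unadjusted p under 0.05. The 5 endothelium markers had 0 called, with 2 at an unadjusted p under 0.05. Over all genes tested 0.190% were called and 8.64% had an unadjusted p under 0.05.

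The genes whose pattern over the 6 libraries was most like that of 3 members were found by Pearson's r of log2 CPM over all tested genes, a choice of the highest that describes these libraries only. For Cdsn these were 1810006J02Rik (0.996), Cd300ld (0.995), Tmed1 (0.994), Kdr (0.993) and Anapc2 (0.990), with log2 fold changes from 0.08 to 1.24. For Krt5 they were Adgrl3 (0.989), 2410004P03Rik, Wrn and Limd2 (0.988 each) and Papd7 (0.986), with log2 fold changes from -0.60 to -0.19. Both sets follow the genotypes with differences far below those of the member they resemble. For Krt8, which did not follow the genotype, they were Chrna1 (0.997), E130309D02Rik and Atp2b3 (0.993 each), Gyg (0.991) and Fdft1 (0.989). Chrna1, the alpha subunit of the muscle acetylcholine receptor, had 25.3, 9.75 and 39.4 CPM in control cartilage and 36.9, 28.2 and 18.6 CPM in mutant cartilage, the same order of libraries as Krt8.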
